A study of Homo sapiens with 12 samples.

Results

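The miR-424, miR-503, miR-542 and miR-450 cluster is a run of 6 hairpins on the X chromosome, and 8 of its mature names were followed here among 2656 miRNA names. They were chosen by name: hsa-miR-424-5p, hsa-miR-424-3p, hsa-miR-503-5p, hsa-miR-542-3p, hsa-miR-542-5p, hsa-miR-450a-5p, hsa-miR-450a-2-3p and hsa-miR-450b-5p, written without the species prefix from here on. All 8 had an entry in all 12 libraries. The samples are AC16, an established human line made by fusing ventricular cardiomyocytes with fibroblasts, and the exosomes isolated from its cultures. The 4 groups of 3 libraries are exosomes Ang, exosomes Con, cells Ang and cells Con. Ang appears as AngII in the file headers with no further expansion, and neither its dose nor its time was found. All groups share the same line. Whether replicates are separate cultures is not stated, so a p-value here covers the spread between libraries, which may be technical. The stated aim concerned exosomal miRNAs of hypertrophic cardiomyocytes and the sequence features they share.

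A polycistron is 1 primary transcript that is cut into several hairpins, each of which gives a 5p and a 3p strand, or arm. Usually one arm is kept in an Argonaute protein and the other is degraded, so names of one cluster can be made together and still differ in level. miR-424 and miR-503 belong to the extended miR-15/16 family, which represses cyclins and other cell cycle genes, and in mouse muscle precursors their counterparts rise during differentiation. miR-542-3p is known as a repressor of survivin, an inhibitor of cell death.

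In GENCODE release 29 (GRCh38) the hairpins lie on the minus strand within 6527 bases, in the order MIR424, MIR503, MIR542, MIR450A2, MIR450A1 and MIR450B in the direction of transcription. MIR424 is at chrX:134546614-134546711 and overlaps exons of 3 of the 5 annotated transcripts of the long non-coding gene MIR503HG. MIR503, at chrX:134546328-134546398, lies inside MIR503HG and overlaps none of its exons. MIR542 (chrX:134541341-134541437), MIR450A2 (chrX:134540508-134540607), MIR450A1 (chrX:134540341-134540431) and MIR450B (chrX:134540185-134540262) lie outside it. miR-450a-5p is made by both MIR450A1 and MIR450A2, whereas miR-450a-2-3p comes from MIR450A2.

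Mature sequences of 7 members, all but miR-542-3p, were matched by name in RefSeq (GRCh38.p14). They are shown 5′ to 3′ because the seed, bases 2 to 8 in capitals, is what pairs with targets and sorts the members into families.
miR-424-5p: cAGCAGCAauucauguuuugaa
miR-424-3p: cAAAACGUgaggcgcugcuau
miR-503-5p: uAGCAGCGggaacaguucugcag
miR-542-5p: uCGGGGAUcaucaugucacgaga
miR-450a-5p: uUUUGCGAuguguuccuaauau
miR-450b-5p: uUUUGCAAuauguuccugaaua
miR-450a-2-3p: aUUGGGGAcauuuugcauucau

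No 2 of these seeds are the same. That of miR-424-5p is shared by 6 other measured names, miR-15a-5p, miR-15b-5p, miR-16-5p, miR-195-5p, miR-497-5p and miR-6838-5p, and the seeds of the other 6 members shown by none. Counted end to end from the 5′ base, miR-450a-5p differs from miR-450b-5p by G7A, G10A, A18G, U20A, A21U and U22A, so 16 of 22 bases are identical. The name nearest to miR-450a-2-3p was the 3p arm of the neighbouring hairpin, which differs from it by G7A, U19G and C20U. The 3p arm of MIR450B matched it at 18 bases. Both are shown because a lenient count could split reads among the 3 names.
miR-450a-1-3p: aUUGGGAAcauuuugcauguau
miR-450b-3p: uUGGGAUCauuuugcauccaua

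The short motifs GGAG, CCCU and GGCU, described for miRNAs in exosomes, were searched in the mature RNA, on its own strand alone. They occur in 15.7%, 11.9% and 12.6% of the 2370 mature sequences of the table and in 0 of the 7 members with a sequence.

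The values are unique molecular identifier (UMI) counts per name. Totals ran from 697049 to 1029883 UMIs in exosome libraries and from 413513 to 528844 in cell libraries, so a floor of 3 counts came to 2.91 to 4.30 CPM (counts per 1000000 UMIs of the library) in exosomes and 5.67 to 7.25 CPM in cells. Floors cover counting error only. No 2 libraries were duplicates, but 2 libraries were most unlike their group. Chi-square divided by its degrees of freedom was taken over the more abundant names of each pair of libraries, 1543 to 1565 in exosomes Con. It was 6.57 and 10.6 between exosomes Con replicate 1 and the others of its group, and 1.91 between those others. For cells Ang replicate 2 it was 4.0 and 4.37, against 1.99 between the others. A smaller departure was that of exosomes Ang replicate 2, with 3.29 and 2.76, against 1.94 between the others. All 7 heart and skeletal muscle markers had counts, with a summed level of 285 to 326 CPM in cells Ang and 344 to 376 CPM in cells Con. The largest part was miR-208a-3p, with 161.6 ± 13.8 CPM in cells Ang and 221.4 ± 26.7 CPM in cells Con (SD, n = 3). miR-1-3p had 2, 3 and 3 counts in cells Ang, none above the floor, and 9, 6 and 3 counts in cells Con. In the same cells the 5 blood cell markers summed to 1980 to 6500 CPM in Ang and 2080 to 2300 CPM in Con. Most of the blood sum was 1 name, miR-223-3p, with 2359 ± 802 CPM in cells Ang and 1999 ± 89.2 CPM in cells Con (SD, n = 3).

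All 8 members together held 134.9, 142.0 and 127.1 CPM in the exosomes Ang libraries and 291.3, 305.0 and 283.1 CPM in the exosomes Con libraries. In cells they held 1246, 1214 and 1416 CPM in Ang and 1341, 1112 and 1153 CPM in Con. The sum was lower in every exosome library than in every cell library. Of names with enough counts to test, 72.4% in Ang and 68.1% in Con were lower in all exosome libraries too. Within exosomes the 3 Ang libraries lay below the 3 Con libraries, as for 36.3% of tested names (2.18-fold, two-sided exact permutation p = 0.1, the smallest that 3 against 3 allows). Without miR-450a-2-3p, an option added after its values were seen, these groups overlapped (log2 -0.09, exact permutation p = 0.6). In cells the groups overlapped (log2 difference 0.11, exact permutation p = 0.4). Over both compartments together the exact permutation p was 0.085. Levels are relative to each library, so fewer vesicles or cells with an RNA and less RNA in each cannot be told apart.

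**Figure D1:**
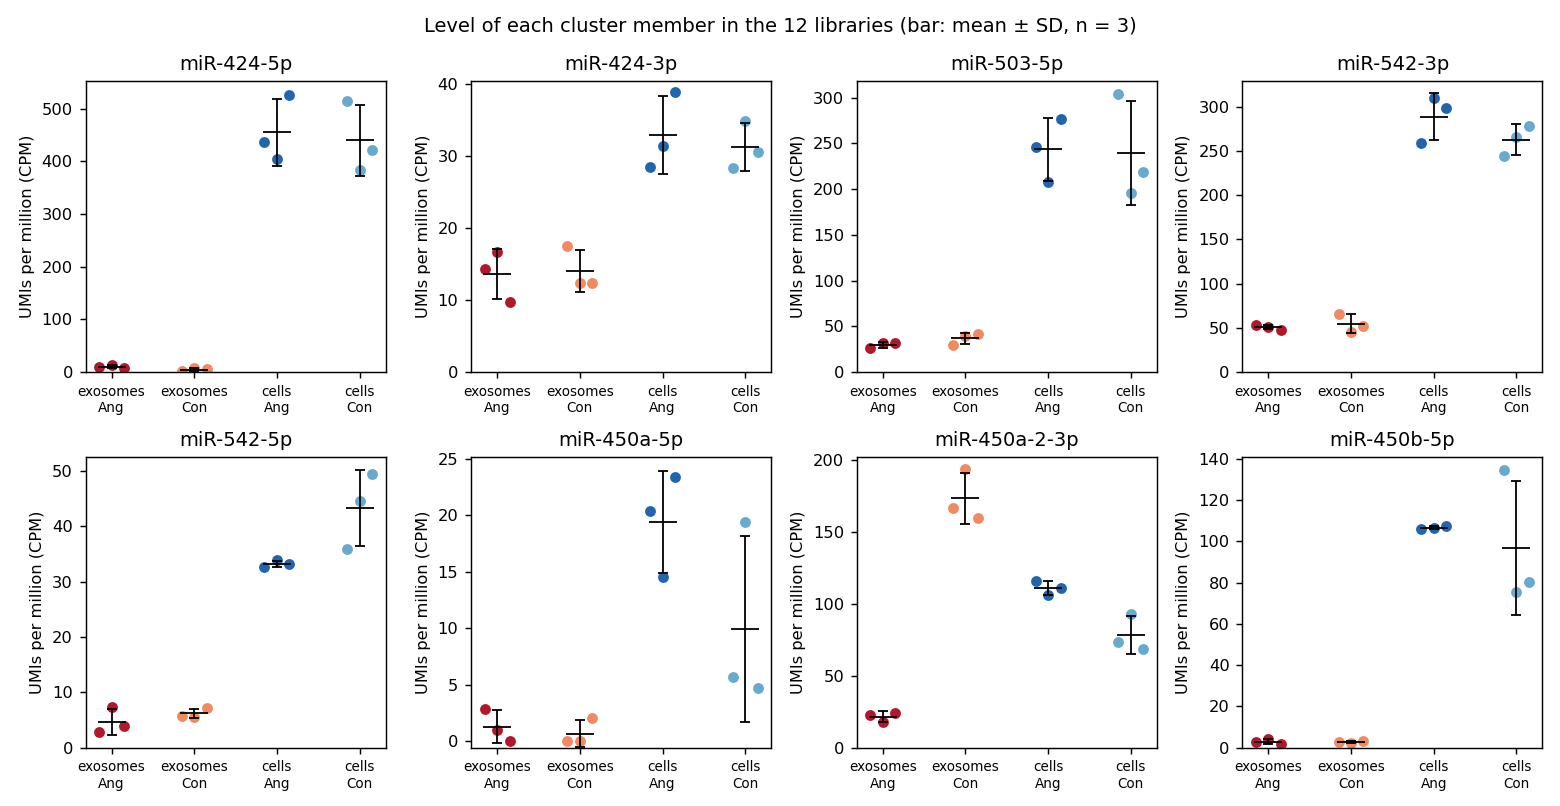
CPM (linear y axes, one panel per member) in the 3 libraries of each group, with mean ± SD as a bar; an SD bar can reach below 0. For miR-450a-2-3p the exosomes Ang libraries (17.75 to 24.45 CPM) stand lowest and the exosomes Con libraries (159.6 to 193.6 CPM) stand above all cell libraries, unlike in the other 7 panels.

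In cells the order of levels was miR-424-5p, miR-542-3p, miR-503-5p, then miR-450b-5p and miR-450a-2-3p, then miR-542-5p, miR-424-3p and miR-450a-5p. The order was the same in Ang and Con except that miR-450a-2-3p and miR-450b-5p changed places, and their libraries overlapped in both groups. miR-424-5p, the more abundant strand of its hairpin in cells, had 436.3, 403.9 and 526.5 CPM in cells Ang and 514.3, 383.7 and 422.1 CPM in cells Con, above every other member. miR-542-3p and miR-503-5p overlapped in both groups, so their order was not beyond the spread.

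Exosomes had another order. In exosomes Ang miR-542-3p led with 53.08, 51.17 and 47.92 CPM, followed by miR-503-5p, miR-450a-2-3p and miR-424-3p, each pair of neighbours without overlap. In exosomes Con miR-450a-2-3p led with 167.0, 193.6 and 159.6 CPM, ahead of miR-542-3p, miR-503-5p and miR-424-3p, again without overlap between neighbours. miR-424-5p, first in cells, had a lower mean than all 4 of these in both exosome groups. Its libraries overlapped those of miR-424-3p in exosomes Ang and those of miR-542-5p and miR-450b-5p in exosomes Con. Of the 8 members' UMIs, miR-450a-2-3p made up 16.3% ± 3.43 in exosomes Ang and 59.1% ± 3.85 in exosomes Con (SD, n = 3), against 8.65% ± 0.746 in cells Ang and 6.60% ± 1.54 in cells Con. The share of miR-424-5p was 7.47% ± 1.34 in exosomes Ang and 1.57% ± 0.804 in exosomes Con, against 35.2% ± 1.97 in cells Ang and 36.5% ± 1.94 in cells Con.

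**Figure D2:**
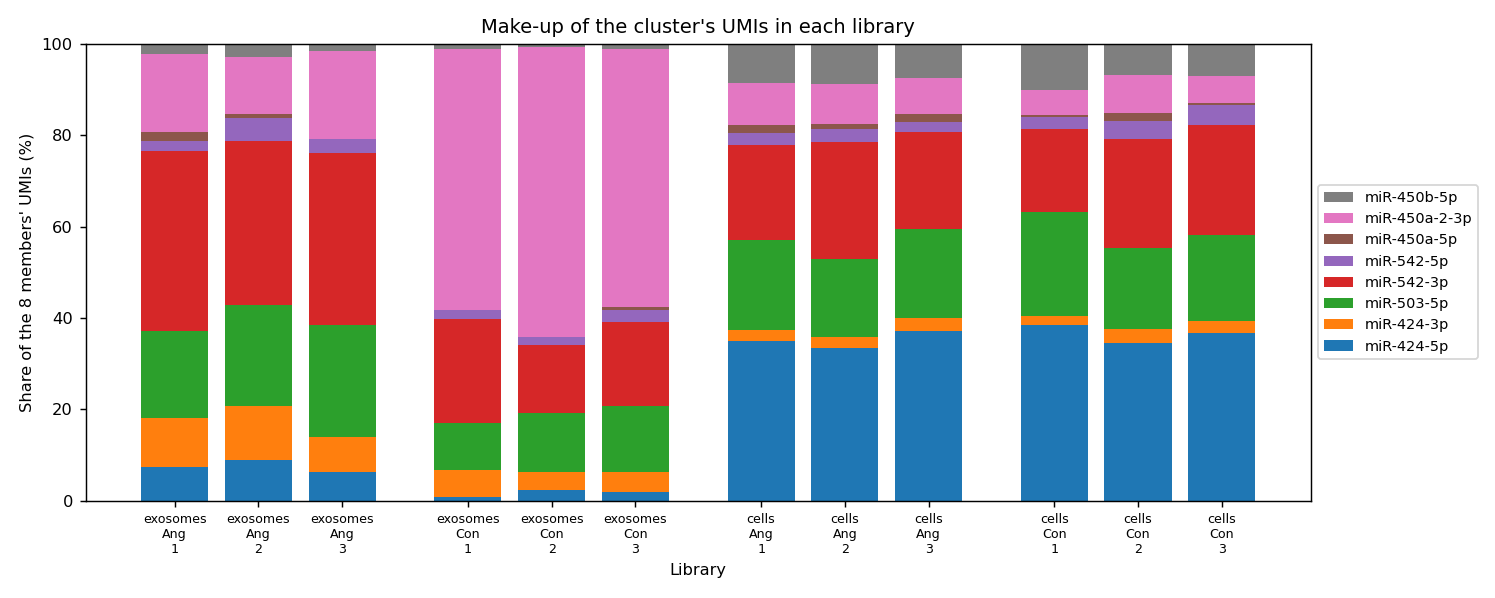
Share (%) of each member in the UMIs of all 8 members, one stacked bar per library. The 6 cell libraries look alike, while miR-450a-2-3p takes 12.5% to 19.2% in exosomes Ang and 56.4% to 63.5% in exosomes Con.

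Ang against Con in exosomes is the comparison nearest to the stated aim, and in it 1 of the 4 tested members passed. Differences were tested with edgeR over all names with enough counts, on a scale set by TMM factors, which assume that most names do not differ; p-values were adjusted over all tested names, and 0.05 was the threshold. Of the 8 members 4 had enough counts. miR-450a-2-3p fell, and miR-424-3p, miR-503-5p and miR-542-3p did not pass. Of all 1199 tested names 34.0% passed, 16.9% higher and 17.1% lower in Ang, so 1 member of 4 is near the background. The median log2 difference of the 4 members was -0.05, the same as over all tested names.

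miR-450a-2-3p, the 3p arm of MIR450A2 (chrX:134540529-134540550), had 16, 17 and 25 counts in exosomes Ang and 172, 172 and 155 in exosomes Con, or 22.95, 17.75 and 24.45 CPM in Ang and 167.0, 193.6 and 159.6 CPM in Con. The groups were far apart: the highest Ang library lay well below the lowest Con library. It was 7.10-fold lower in Ang (log2 -2.83, SE 0.169, edgeR adjusted p = 2.21e-06, 3 libraries per group). In CPM 36.3% of tested names had all Ang libraries below all Con libraries. The 5 blood cell markers, all with counts, summed to 339 to 617 CPM in exosomes Ang and 531 to 1240 CPM in exosomes Con, where replicate 1 had the lowest sum. Of these 5, 4 were tested and 3 passed as lower in Ang: miR-451a (6.21-fold, edgeR adjusted p = 0.0426), miR-142-3p (3.24-fold, adjusted p = 0.0494) and miR-223-3p (1.37-fold, adjusted p = 0.0456). The liver marker miR-122-5p was 7.02-fold lower (adjusted p = 0.0262), with 4.3, 18.8 and 10.8 CPM in exosomes Ang and 8.74, 123 and 156 CPM in exosomes Con. The 2 endothelial markers summed to 84.6 to 233 CPM in exosomes Ang and 130 to 473 CPM in exosomes Con and did not pass. The libraries of each of these marker names overlapped between the groups, unlike those of miR-450a-2-3p, and the part of these cell types in the result was not tested. Without exosomes Con replicate 1 the log2 difference of miR-450a-2-3p was -2.82, and without exosomes Ang replicate 2 it was -2.64. Its 3p relatives were too rare to be compared: miR-450a-1-3p had 0, 0 and 0 counts in exosomes Ang and 0, 0 and 1 in exosomes Con, and miR-450b-3p had 0, 3 and 0 in Ang and 0, 1 and 3 in Con.

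miR-503-5p, the cell cycle regulator, had 25.82, 31.33 and 31.29 CPM in exosomes Ang and 30.10, 39.39 and 41.18 CPM in exosomes Con, which overlapped (log2 -0.14, SE 0.187, adjusted p = 0.683). miR-542-3p overlapped too (log2 0.05, SE 0.187, adjusted p = 0.887), as did miR-424-3p (log2 0.09, SE 0.304, adjusted p = 0.876), and for both the sign turned with library totals as the scale. With miR-450a-2-3p left out, an option added after its values were seen, the other 7 members summed to 111.9, 124.3 and 102.7 CPM in exosomes Ang and 124.3, 111.4 and 123.5 CPM in exosomes Con, which overlapped (log2 -0.09, exact permutation p = 0.6).

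Among the members that missed the count filter, miR-424-5p had 7, 12 and 8 counts in exosomes Ang and 2, 6 and 5 in exosomes Con, or 10.04, 12.53 and 7.82 CPM in Ang and 1.94, 6.75 and 5.15 CPM in Con. All Ang libraries were higher, as for 16.1% of tested names, with counts near the floor in Con. With no count filter its log2 difference was 1.24 (SE 0.462, edgeR adjusted p = 0.0852), and in a fit to all 12 libraries it was 1.39 (adjusted p = 0.0235). miR-542-5p had 2, 7 and 4 counts in Ang and 6, 5 and 7 in Con, and miR-450b-5p 2, 4 and 2 in Ang and 3, 2 and 3 in Con. miR-450a-5p had 2, 1 and 0 counts in Ang and 0, 0 and 2 in Con, all under the floor. For these 3 no difference was detectable at this depth.

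**Figure D3:**
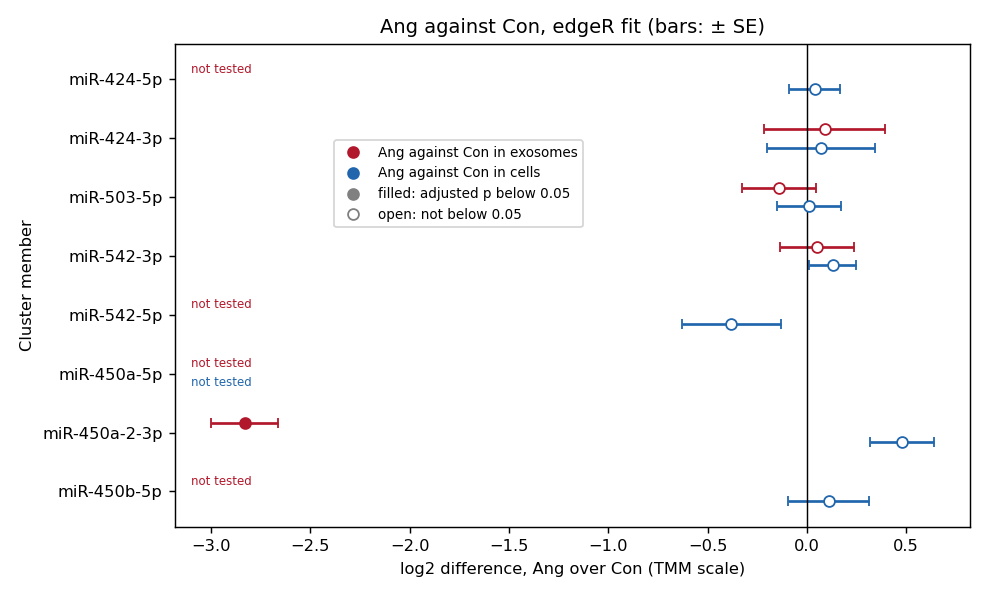
log2 difference of Ang over Con (x axis, TMM scale, bars ± SE) for each member in exosomes (red) and in cells (blue); filled points passed an adjusted p of 0.05. In exosomes miR-450a-2-3p at -2.83 stands far from the 3 other tested members, which lie between -0.14 and 0.09.

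Ang against Con was next compared in cells, where 7 members were tested and 0 passed. Over all 1630 tested names 6.56% passed, 2.76% higher and 3.8% lower in Ang. At an unadjusted p under 0.05 the count of members was 1 with edgeR, 0 with DESeq2 and 1 with limma-voom, and none passed adjustment with any of the 3 tools. The median of the 7 members was a log2 difference of 0.07, against 0.02 over all tested names. miR-424-5p (log2 0.04, SE 0.128, adjusted p = 0.929), miR-503-5p (log2 0.01, SE 0.162) and miR-542-3p (log2 0.13, SE 0.119) all overlapped between the groups, as did miR-424-3p (log2 0.07, SE 0.272) and miR-450b-5p (log2 0.11, SE 0.203). miR-450a-5p, with 10, 6 and 12 counts in cells Ang and 3, 10 and 2 in cells Con, missed the count filter, and its groups overlapped too.

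The member with the lowest p was again miR-450a-2-3p, with 116.2, 106.4 and 111.1 CPM in cells Ang and 73.75, 93.02 and 68.39 CPM in cells Con. All Ang libraries were higher, opposite to exosomes, as 12.5% of tested names were in cells. The log2 difference was 0.48 (SE 0.162, unadjusted p = 0.00864), and it missed the threshold (edgeR adjusted p = 0.0947). miR-542-5p lay the other way, with 32.62, 33.86 and 33.15 CPM in cells Ang and 35.93, 44.57 and 49.52 CPM in cells Con (log2 -0.38, SE 0.251, adjusted p = 0.478). Its groups did not overlap, as for the 9.94% of tested names that were lower throughout. In cells Ang replicate 2 the markers of all 3 other sources were high. Blood cell markers summed to 6500 CPM there, against 1980 and 2120 CPM in the other Ang cells. Endothelial markers summed to 4660 CPM, against 524 and 517 CPM, and liver miR-122-5p had 181 CPM, against 8.15 and 7.8 CPM. The endothelial miR-126-3p passed as higher in cells Ang (5.5-fold, edgeR adjusted p = 0.0445). It had 301.7, 4007 and 317.8 CPM in cells Ang and 274.2, 279.1 and 280.6 CPM in cells Con. miR-126-5p did not pass (log2 0.07, edgeR adjusted p = 0.948). The muscle marker miR-208a-3p passed as lower (1.38-fold, edgeR adjusted p = 0.0446). Of the other muscle markers, miR-208b-3p (log2 -0.31) and miR-499a-5p (log2 0.34) did not pass, and the rest missed the count filter. Without cells Ang replicate 2 miR-450a-2-3p had a log2 difference of 0.50 (adjusted p = 0.128).

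The change with Ang in exosomes minus that in cells was then tested in 1 fit to all 12 libraries. Of the 8 members, all tested, miR-450a-2-3p was lower and miR-424-5p higher, where 5.18% and 9.97% of 1835 tested names passed in those directions and 15.1% in either. For miR-450a-2-3p the log2 difference of the changes was -3.17 (SE 0.239, edgeR adjusted p = 1.08e-07). For miR-424-5p it was 1.41 (SE 0.446, edgeR adjusted p = 0.0405), with Ang libraries higher in exosomes and overlapping groups in cells. miR-424-5p missed the count filter of the exosome fit and was tested here through its cell counts. That call rests on 27 UMIs in exosomes Ang and 13 in exosomes Con, over 3 libraries each. It ended with library totals (log2 1.08, adjusted p = 0.119), with limma-voom (1.46, adjusted p = 0.0812), with a replicate block (1.42, adjusted p = 0.056), and without cells Con replicate 1 or 3, cells Ang replicate 1 or 2, exosomes Con replicate 1 or 3, or exosomes Ang replicate 1 or 2 (1.0 to 1.51, adjusted p up to 0.183). The other 6 members had values from -0.01 to 0.33 and did not pass.

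Exosomes were compared with cells to ask which members are relatively abundant outside the cell. The kit used to extract RNA differed between exosomes and cells, so compartment and kit cannot be told apart. In Ang 6 of 7 tested members were lower in exosomes and none higher, and in Con 5 were lower and 1 higher. Such calls are common, at 83.3% of tested names in Ang and 83.3% in Con: 45.1% of tested names were lower in Ang and 44.2% in Con, 38.2% and 39.2% were higher, and the members' median was -0.87 in Ang and -1.19 in Con, against -0.31 and -0.27 over all tested names. The scale matters here, as library totals in place of TMM factors moved the median of all names to -2.21 in Ang and -1.79 in Con. With them 294 names were higher and 1176 lower in Ang, against 621 and 734 with TMM factors, and 346 and 1156 in Con, against 670 and 755.

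In CPM 72.4% of tested names had all exosome libraries below all cell libraries in Ang and 68.1% in Con, and 18.6% and 21.0% had them above.

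miR-424-5p had the lowest log2 difference of the tested members in both. It had 7.82 to 12.53 CPM in exosomes Ang, against 403.9 to 526.5 CPM in cells Ang (log2 -3.60, SE 0.216, adjusted p = 6.74e-11). In Con it had 1.94 to 6.75 CPM in exosomes, against 383.7 to 514.3 CPM in cells (log2 -5.06, SE 0.268, adjusted p = 1.85e-08). miR-450b-5p was next, with log2 -3.23 in Ang (1.96 to 4.18 CPM in exosomes, 106.6 ± 0.631 CPM in cells, SD, n = 3) and -3.58 in Con (2.25 to 3.09 CPM in exosomes, 75.58 to 134.3 CPM in cells). Both names were thus common in cells and rare in exosomes, and near the floor there except for miR-424-5p in Ang. miR-503-5p was lower in exosomes by less (log2 -1.15, adjusted p = 1.81e-05 in Ang, and -1.19, adjusted p = 0.000287 in Con). So was miR-542-3p (log2 -0.62, adjusted p = 0.00119 in Ang, and -0.74, adjusted p = 0.000954 in Con). miR-542-5p was lower in exosomes in Ang (log2 -0.87, adjusted p = 0.047) and in Con (log2 -1.26, adjusted p = 0.00206). The Ang call ended with DESeq2, with no count filter, with a replicate block, in a fit to all 12 libraries and without any 1 library other than exosomes Ang replicate 2. miR-450a-5p, at 0 to 2 counts in each exosome library, was not tested.

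Both members that departed from this, miR-450a-2-3p in Con alone, were 3p arms, but so was miR-542-3p, which was lower. The other 3p arms of these hairpins differed in how far they could be tested. miR-450a-1-3p had 0 counts in every exosomes Ang library and 12, 11 and 13 in cells Ang, so it passed the count filter through cells alone. Its call as lower in exosomes in Ang (log2 -6.20, edgeR adjusted p = 3.49e-05) could not have gone the other way. In Con it was not tested, with 0, 0 and 1 counts in exosomes and 12, 6 and 8 in cells. miR-503-3p was higher in Con (log2 0.87, adjusted p = 0.0146), with overlapping CPM groups, and did not pass in Ang (log2 0.05). miR-424-3p, the strand of MIR424 that is the rarer one in cells, had 14.35, 16.71 and 9.78 CPM in exosomes Ang and 28.54, 31.44 and 39.00 CPM in cells Ang. In Con it had 17.48, 12.38 and 12.35 CPM in exosomes and 28.36, 34.88 and 30.66 CPM in cells. It was lower in exosomes in CPM, yet its log2 difference on the TMM scale was 0.58 in Ang (adjusted p = 0.0833) and 0.37 in Con (adjusted p = 0.253). With library totals the sign turned and the value passed (log2 -1.30 in Ang and -1.14 in Con). On the TMM scale it passed as higher in exosomes in Ang without cells Ang replicate 3 (log2 0.78, adjusted p = 0.0476) or without exosomes Ang replicate 3 (log2 0.85, adjusted p = 0.0358). miR-450a-2-3p was lower in exosomes in Ang, on either scale (TMM log2 -0.47, adjusted p = 0.0355; library totals -2.37). In Con it was higher (TMM log2 2.65, SE 0.147, adjusted p = 2.79e-08; library totals 1.12). The Ang call on the TMM scale ended with DESeq2, with no count filter, with a replicate block and without any one of the 6 libraries (log2 -0.54 to -0.33).

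**Figure D4:**
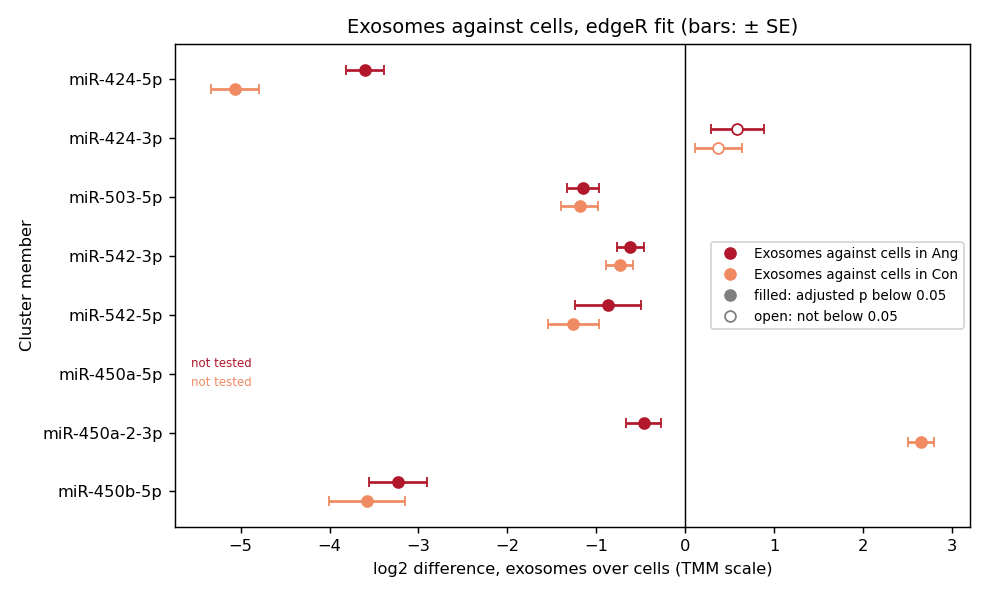
log2 difference of exosomes over cells (x axis, TMM scale, bars ± SE) for each member in Ang (dark red) and in Con (orange); filled points passed an adjusted p of 0.05. miR-450a-2-3p lies at -0.47 in Ang and 2.65 in Con, and miR-424-5p and miR-450b-5p lie lowest in both.

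Whether the arms of 1 hairpin move together was read from the ratio of 5p to 3p UMIs in each library, with 0.5 added to each count, which needs no scaling between libraries. For miR-424 the log2 ratio was -0.49, -0.40 and -0.30 in exosomes Ang and -2.89, -0.82 and -1.18 in exosomes Con. It was 3.89, 3.63 and 3.72 in cells Ang and 4.14, 3.42 and 3.73 in cells Con. The 3p arm thus had more UMIs in all 6 exosome libraries and the 5p arm in all 6 cell libraries. In exosomes Ang the lead was small, with 7, 12 and 8 UMIs of 5p against 10, 16 and 10 of 3p, and the CPM values overlapped. In exosomes Con the counts were 2, 6 and 5 of 5p against 18, 11 and 12 of 3p. The ratio was lower in exosomes (log2 difference -4.77, two-sided exact permutation p = 0.005, the smallest 400 assignments allow, and p = 0.03 adjusted over 6 tests). For Ang against Con over both compartments the difference was 0.61 (exact permutation p = 0.09, adjusted 0.105). Within exosomes all 3 Ang ratios lay above the 3 Con ratios (difference 1.23, exact permutation p = 0.1, the smallest possible), and in cells the groups overlapped (-0.02, exact permutation p = 0.9).

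The ratio of miR-450a-5p to miR-450a-2-3p was also lower in exosomes (difference -3.01, exact permutation p = 0.01, adjusted 0.03). It was higher in Ang than in Con over both compartments (difference 2.12, exact permutation p = 0.02, adjusted 0.04). Within exosomes it was -2.72, -3.54 and -5.67 in Ang and -8.43, -8.43 and -5.96 in Con, with 5p counts of 0 to 2. These values thus depend on the 0.5 added and are not separate from the fall of miR-450a-2-3p. As miR-450a-5p also comes from MIR450A1, the ratio is not one between the arms of 1 hairpin alone. The adjusted p for Ang reached 0.05 to 0.1 when any library but cells Con replicate 2 or exosomes Ang replicate 2 was left out. Within a compartment alone the exact permutation p was 0.1 in exosomes and 0.3 in cells.

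For miR-542 the 3p arm was ahead in every library. Its log2 ratio was -3.91, -2.72 and -3.46 in exosomes Ang and -3.40, -2.88 and -2.78 in exosomes Con. In cells it was -2.95, -3.15 and -3.13 in Ang and -2.73, -2.55 and -2.46 in Con. Neither compartment (difference -0.36, exact permutation p = 0.105) nor Ang (-0.42, exact permutation p = 0.065, adjusted 0.0975) passed, although without exosomes Ang replicate 2 both did (adjusted p = 0.015). Within cells all 3 Ang ratios lay below the 3 Con ratios (difference -0.50, exact permutation p = 0.1, the smallest possible), and in exosomes the groups overlapped (-0.34, exact permutation p = 0.5).

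The other arms of 2 further hairpins were read in the same way as a description, with no test. miR-503 had a 5p over 3p log2 ratio of 1.65 ± 0.345 in exosomes Ang and 0.98 ± 0.387 in exosomes Con, and of 2.83 ± 0.193 in cells Ang and 3.08 ± 0.338 in cells Con (SD, n = 3). Its 3p arm, miR-503-3p, had 5.74, 10.44 and 11.74 CPM in exosomes Ang and 20.39, 18.01 and 16.47 CPM in exosomes Con. These groups did not overlap, but the difference missed the threshold (log2 -0.75, SE 0.291, edgeR adjusted p = 0.0754). For miR-450b the ratio spread widely in exosomes, from 0.36 to 2.32 in Ang and from 0.00 to 2.81 in Con, with few UMIs.

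**Figure D5:**
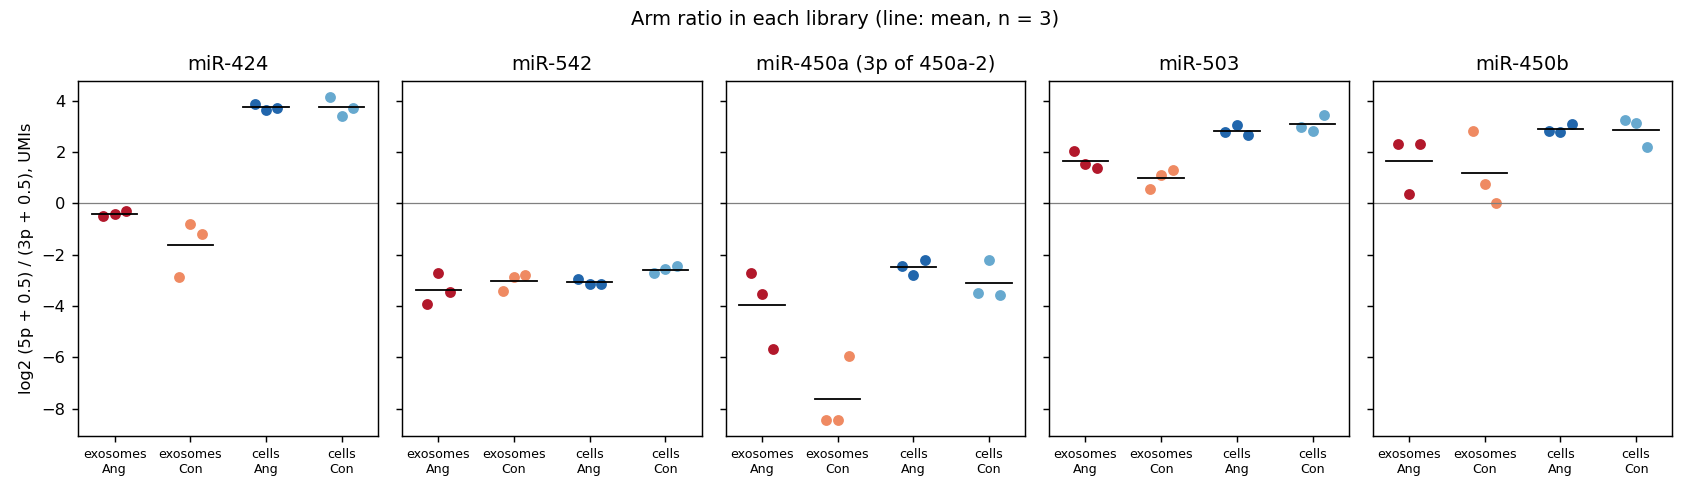
log2 ratio of 5p to 3p UMIs (0.5 added to each) in each library for 5 hairpins, with the group mean as a line; the 3p strand for miR-450a is that of MIR450A2. miR-424 lies below 0 in all exosome libraries and between 3.42 and 4.14 in cells, while miR-542 stays between -3.91 and -2.46 throughout.

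The names that share the seed of miR-424-5p were set beside it. In exosomes 4 of the 6 were tested for Ang against Con, where 34.0% of all tested names passed, and 0 passed with edgeR, DESeq2 or limma-voom, also at an unadjusted p under 0.05. In cells, where 6.56% of all tested names passed, all 6 were tested and 0 passed, with 1, 0 and 1 at an unadjusted p under 0.05 with those tools. Against cells 5 of the 6 were lower in exosomes in Ang and 3 in Con, with 1 higher in each, where 45.1% and 44.2% of all tested names were lower and 38.2% and 39.2% higher. The log2 difference of miR-15a-5p was -3.91 in Ang and -4.53 in Con, and that of miR-15b-5p was -2.60 and -2.91. The higher one was miR-6838-5p (1.62 and 1.55), whose CPM groups overlapped.

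Likeness of pattern was measured as the root mean square difference between log2(CPM + 1) profiles over the 12 libraries, each centred on its own mean. The names nearest to the sum of the 8 members were miR-4754 (0.172), miR-6819-5p (0.18) and miR-1306-3p (0.198), where the median over 1762 names was 0.984. Nearest to miR-450a-2-3p were miR-1285-3p (0.382), miR-3141 (0.565) and miR-382-5p (0.578), where the median over 1768 names was 1.46. miR-1285-3p had 10.7 ± 2.62 CPM in exosomes Ang and 62.6 ± 13.4 CPM in exosomes Con, and 33.2 ± 1.81 CPM in cells Ang and 27.1 ± 1.21 CPM in cells Con (SD, n = 3). The nearest other member was miR-424-3p at 1.12, which ranked 386.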

How the data were processed

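The authors deposited 1 file of UMI counts per library, by mature miRNA, per the file headers; the values are raw. The submitters' processing notes name cutadapt and the build GRCh38. Neither aligner, counter nor miRNA annotation was found in the labels or headers. Per the labels' protocols, cell RNA came from the miRNeasy Micro kit, exosome RNA from the exoRNeasy Maxi kit, and libraries from the QIAseq miRNA kit. The 76 names listed in cell files alone were taken as 0 in exosomes.

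Each pair of groups was fitted over all names with edgeR 4.0.16 in R 4.3.3 (filterByExpr, TMM factors, quasi-likelihood test, two-sided) with Benjamini-Hochberg adjustment over all tested names and a threshold of 0.05; the difference of changes was fitted to all 12 libraries. SE is the log2 difference over the square root of the F statistic. CPM uses library totals. Arm ratios and sums were compared with exact permutation tests, stratified where both compartments or both treatments entered. The tests were checked on simulated data. For edgeR the changes were planted only in names with higher counts, with a fixed spread between libraries, so the rarest members were not covered. Alternatives were RLE factors, library totals, DESeq2 1.42.0, limma-voom (limma 3.58.1), 2 other count filters, a replicate block, all 12 libraries, and each library left out.

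All 8 members were named whatever their values, with the other arms of their hairpins, the shared-seed names, the nearby miR-106a to miR-363 cluster and the 3 nearest patterns among names with a mean of at least 10 CPM. The members and lists were chosen with earlier results of these data known.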

Additional observations from a re-analysis of the deposited data

Results flagged for a closer look

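In the main fit 2 members passed the test of whether the change with Ang differed between exosomes and cells, and 1 of these calls, for miR-424-5p, depended on the setting. For miR-450a-2-3p the difference of the 2 log2 changes, exosomes minus cells, was -3.17 (edgeR adjusted p = 1.08e-07). All 3 exosomes Ang libraries lay below the Con libraries, as for 36.3% of tested names. All 3 cells Ang libraries lay above the Con cells, as for 12.5% of tested names, and there the change missed the threshold of its own test. For miR-424-5p the difference of changes was 1.41 (edgeR adjusted p = 0.0405), with exosome counts of 2 to 12 per library. The name missed the count filter of the exosome fit. Its call held under 8 of 19 alternatives, with adjusted p up to 0.183.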

How the results depend on the processing

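The fall of miR-450a-2-3p in exosomes Ang kept its direction and its call under all 14 alternatives (log2 -2.99 to -2.64), as did its difference of changes under all 19 (-3.49 to -3.05). In exosomes 2 members passed with all 12 libraries in the fit, miR-424-5p being the other. For the difference of changes 1 member passed with library totals, limma-voom or a replicate block, and 1 to 2 with a library left out; the cause was not tested. Names passed in cells numbered 107, and 38 to 97 with a library left out. Library totals gave 151 names higher and 319 lower in exosomes, against 203 and 205, and 93 and 222 for the difference of changes, against 183 and 95, where RLE factors gave 250 and 77. The median of all names moved to -0.22 in exosomes and -0.26 for the difference of changes, against -0.05 and 0.05.

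The log2 ratio of miR-450a arms for Ang against Con ran from 1.80 to 2.54 with a library left out; those of miR-542 ran from -0.58 to -0.28 for Ang and from -0.52 to -0.23 for compartment. Fewer samples leave fewer assignments.

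Signs turned for members whose log2 difference did not pass. With library totals miR-424-3p stood at -0.08 and miR-542-3p at -0.11 in exosomes, and miR-424-3p at -1.30 in Ang and -1.14 in Con for exosomes over cells. For the difference of changes library totals gave miR-424-3p -0.16, miR-542-3p -0.26 and miR-450b-5p -0.03. With no count filter miR-542-3p was -0.01 in exosomes and miR-503-5p -0.02 in cells, and for the difference of changes miR-503-5p and miR-450a-5p were both 0.02. RLE factors gave miR-503-5p -0.0038 in cells and, for the difference of changes, miR-503-5p 0.10 and miR-450a-5p 0.08. DESeq2 gave miR-503-5p -0.0041 and 0.10. A minimum mean of 10 CPM gave miR-503-5p -0.02 in cells, and all 12 libraries gave miR-503-5p -0.05 and miR-424-5p -0.02.

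With a library left out, values in exosomes ran from -0.07 to 0.31 for miR-424-3p and -0.07 to 0.24 for miR-542-3p. In cells they ran from -0.08 to 0.17 for miR-424-5p and for miR-424-3p, -0.13 to 0.23 for miR-503-5p and -0.06 to 0.44 for miR-450b-5p. For the difference of changes they ran from -0.06 to 0.35 for miR-424-3p, -0.23 to 0.14 for miR-503-5p, -0.09 to 0.20 for miR-542-3p, -0.15 to 0.51 for miR-542-5p, -1.06 to 2.88 for miR-450a-5p and -0.07 to 0.53 for miR-450b-5p.

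Same-numbered libraries shared little: the correlation of their deviations ran from -0.053 to 0.12 over 12 pairs. A replicate block ended the calls named above for exosomes over cells in Ang and for miR-424-5p, and turned miR-503-5p to 0.0046 for the difference of changes. Counts of 0 to 12 limit miR-424-5p, miR-542-5p, miR-450a-5p and miR-450b-5p in exosomes.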

Other observations

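Another polycistron, that of miR-106a and miR-363, lies 369907 bases from these hairpins on the X chromosome, and most of its 10 names had too few counts to test. In exosomes 1 was tested for Ang against Con, miR-363-5p, with a log2 difference of -0.52 (SE 0.21, edgeR adjusted p = 0.13). In cells 1 was tested, miR-106a-5p, with a log2 difference of -0.10 (adjusted p = 0.918). Against cells, miR-106a-5p was lower in exosomes in Ang (log2 -1.90, adjusted p = 0.00339), where miR-363-5p was not tested. In Con miR-106a-5p was lower (log2 -2.0, adjusted p = 0.00255) and miR-363-5p higher (log2 2.19, adjusted p = 3.19e-05). For exosomes against cells 83.3% of all tested names passed in Ang and 83.3% in Con. Of all tested names 45.1% were lower in exosomes in Ang, and in Con 44.2% were lower and 39.2% higher.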
